A study of Mus musculus with 6 samples.

Results

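The collagen genes were followed in embryonic mouse hearts as a family. Members were the genes whose symbol has the form Col, a number, a, a number, and which are named alone by a probe set of the array. Of 18193 genes named in this way, 42 were collagen genes, and the probe set with the highest mean signal stood for each. The RefSeq gene table lists 44 such genes, and Col6a6 and Col28a1 were not analysed here. In 30 of the 42 members the mean log2 signal over all arrays reached 5.90, the level below which the dimmest 40% of probe sets lie, and these were tested. The other 12 were left out of that test and are described apart, Col11a2 and Col17a1 by their values. Hearts of C57BL/6 embryos at E12.5 were compared in 2 groups: 3 arrays carry the genotype label Rhau KO and 3 carry the label wildtype. Rhau is an older name of Dhx36, a helicase that unwinds G-quadruplexes, structures formed by guanine-rich RNA and DNA. The deleted part of the gene, any Cre driver and the cells in which it would act were not given in the labels. The design text gives 3 hearts per group, which reads as 1 heart per array.

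Collagens are secreted or membrane-bound proteins of the extracellular matrix, built from chains that wind around each other in a rope-like helix. Fibrillar collagens form the load-bearing fibres, fibril-associated collagens coat those fibres, collagen IV forms the sheet of basement membranes, collagen VI forms beaded filaments close to cells, and transmembrane collagens stay anchored in the cell surface. In the embryonic heart, matrix is laid down under the endocardium, in the cushions that become valves, under the epicardium and around vessels.

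Several facts about the arrays bear on every difference below. The targeted gene went against its label: Dhx36 signal averaged 10.27 ± 0.19 in arrays labelled Rhau KO and 8.86 ± 0.14 in arrays labelled wildtype (log2, SD, n = 3 each; difference 1.41, limma adjusted p = 1.46e-05). Its other probe sets were higher under the Rhau KO label too, by 1.10 and 0.90. A probe set outside the deleted part would check nothing, so these values do not settle whether the genotype labels are right. Every direction here is that of the labels as deposited and would turn if they were exchanged. Sex-linked transcripts also differed: the mean signal of 3 Y-linked genes lay between 59.6% and 100% of the highest array under the Rhau KO label, and between 1.23% and 39.3% under the wildtype label. Xist, the RNA of the inactive X chromosome, lay between 0.232% and 61.1% of its highest array under the Rhau KO label and between 77.2% and 100% under the wildtype label. Wildtype replicate 3 and Rhau KO replicates 1 and 2 carried both kinds of transcript, which a single male or female heart would not be expected to do, so whether n counts single hearts cannot be told from these files. All 10 cardiomyocyte markers were well above the tested level (Tnnt2 at 15.01 and 15.14 in the Rhau KO and wildtype arrays). Of all 12416 genes tested, 1018 passed as higher under the Rhau KO label and 1336 as lower, 19.0% in all. Centring each array on its median gave 532 and 1846, so the share of higher genes among all calls was 22.4% in place of 43.2%. Precision is set by how few arrays there are.

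Most collagen genes of the heart did not pass the test, while a few of different classes did. Of the 30 members tested, 6 were higher in the arrays labelled Rhau KO (Col2a1, Col4a5, Col12a1, Col13a1, Col23a1 and Col26a1), 3 were lower (Col6a1, Col6a2 and Col6a3), and 21 did not pass at an adjusted p of 0.05. The higher members were 20.0% of those tested, where 8.20% of all genes were higher. The lower members were 10%, where 10.8% of all genes were lower, so their number is no more than that of genes at large. The median difference was 0.03 for the 30 members and 0.01 for all genes, on the log2 scale, Rhau KO minus wildtype. Arrays labelled Rhau KO lay wholly above the wildtype arrays for 9 members (30%, against 18.4% of all genes) and wholly below them for 4 (13.3%, against 18.7%); 37.1% of all genes separated the labels in one direction or the other. In whole hearts, fewer cells of a type and less RNA per cell cannot be told apart.

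**Figure D1:**
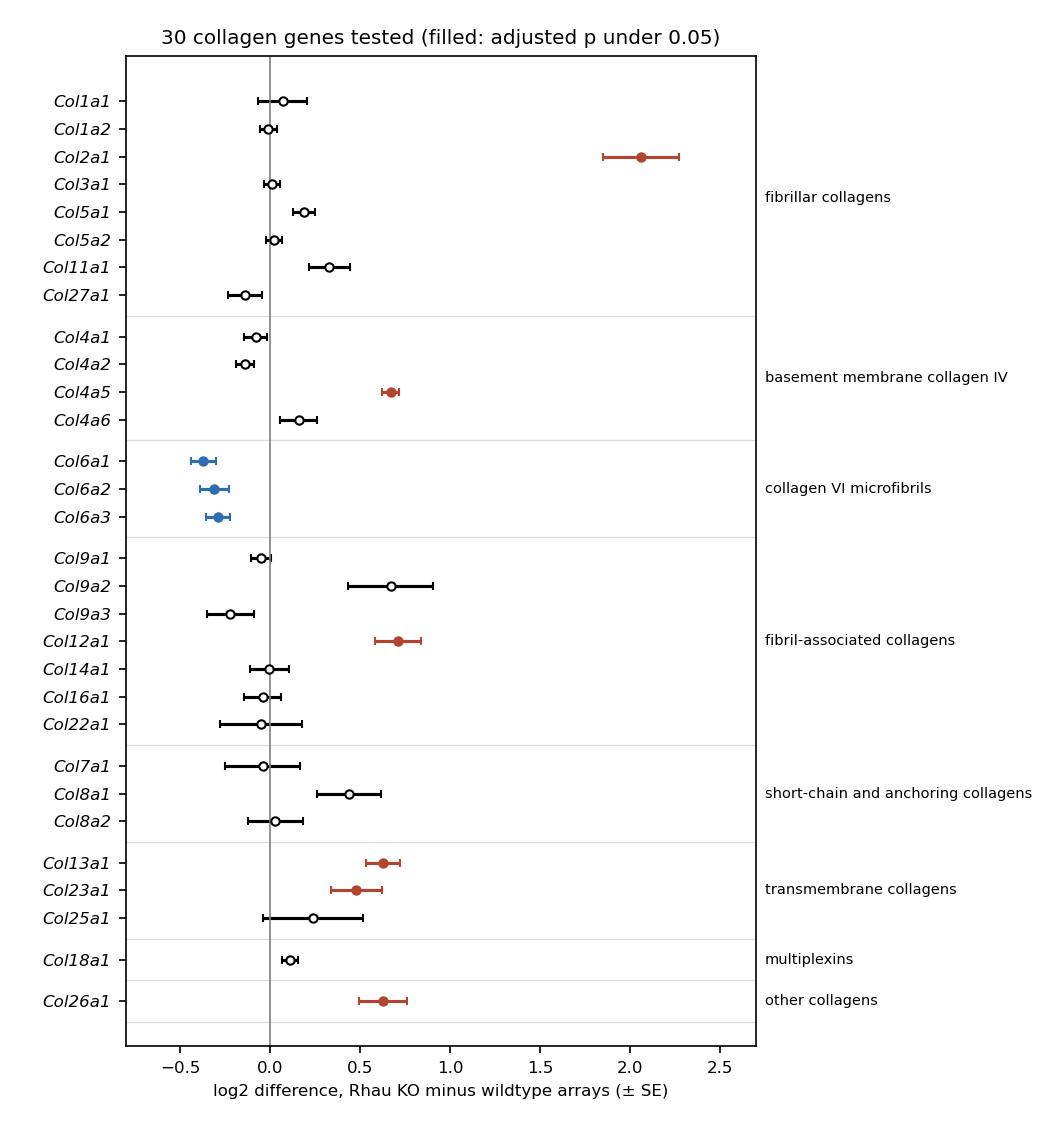
Log2 difference of each tested collagen gene, arrays labelled Rhau KO minus arrays labelled wildtype (horizontal axis, points with SE, 3 arrays a group), grouped by collagen class. Filled points passed the test: Col2a1 stands farthest from 0 at 2.06, while the 3 collagen VI genes are the only filled points below 0.

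Col2a1, the main fibrillar collagen of cartilage, differed most among the members. Its log2 signal was 10.50, 9.87 and 10.05 in the arrays labelled Rhau KO, against 7.68, 7.97 and 8.57 in those labelled wildtype. The groups do not overlap, though the wildtype arrays were spread over almost 1 log2 unit. The difference was 2.06 (SE 0.212), a 4.18-fold higher level with adjusted p = 0.000114, and it lay between 1.87 and 2.31 when any 1 array was left out. A single probe set measures this gene.

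The fibrillar collagens that make up most of the fibres of soft tissue stood close to 0. Col3a1, the chain of collagen III, had 14.10, 14.10 and 14.17 in the Rhau KO arrays and 14.09, 14.14 and 14.10 in the wildtype arrays. Col1a2, a chain of collagen I, had 13.57, 13.68 and 13.66 in the Rhau KO arrays and 13.60, 13.64 and 13.70 in the wildtype arrays. The groups overlap for both genes, which have the highest signals among the members and lie near the top of the scale, where saturation was not tested. The 95% confidence interval of the difference ran from -0.08 to 0.10 for Col3a1 and from -0.11 to 0.10 for Col1a2. Col1a1, the other chain of collagen I, differed by 0.07 with a wider interval of -0.24 to 0.37. Col5a2, a chain of the collagen V that helps start fibrils, differed by 0.02 on its brightest probe set.

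Some other fibrillar genes separated the labels without passing. Col5a1, the partner of Col5a2, was at 11.57, 11.62 and 11.57 in the Rhau KO arrays and at 11.51, 11.40 and 11.28 in the wildtype arrays. The groups do not overlap, and the difference of 0.19 had adjusted p = 0.0532. Its other probe sets differed by -0.10 and 0.16 without passing, and the mean of all Col5a1 probe sets differed by 0.08 (limma adjusted p = 0.462). Col11a1, a chain of the collagen XI found inside cartilage fibrils, was at 8.71, 8.83 and 8.54 in the Rhau KO arrays and 8.24, 8.40 and 8.46 in the wildtype arrays. Its difference of 0.33 likewise had groups apart and missed the threshold, with adjusted p = 0.0698. Col5a1 passed without wildtype replicate 1 (0.25, adjusted p = 0.0293) and Col11a1 without Rhau KO replicate 3 (0.40, adjusted p = 0.0484). Col27a1, a further fibrillar collagen of cartilage, differed by -0.14 (adjusted p = 0.346).

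The collagens that accompany Col2a1 in cartilage had varied values. Collagen IX sits on the surface of type II fibrils, and its chains differed by -0.05 for Col9a1, 0.67 for Col9a2 and -0.22 for Col9a3, none of them past the threshold. Col9a2 was at 6.66, 6.40 and 6.75 in the Rhau KO arrays and at 5.87, 5.77 and 6.17 in the wildtype arrays. The groups do not overlap, but the wildtype values straddle the filter level, and adjusted p was 0.0773. Col11a2 and Col10a1, of cartilage fibrils and of hypertrophic cartilage, lay below the filter. Among 11 cartilage markers 6 were tested: Trps1 was higher (0.38), Sox5, a transcription factor of chondrocytes, was lower (-0.57), and 4 did not pass. Leaving out 1 array kept the call of Trps1 in 2 of 6 fits (0.31 to 0.42) and that of Sox5 in 1 (-0.65 to -0.41). In a fit with Y-linked signal as a covariate neither passed (0.27 and -0.41, limma adjusted p = 0.635 and 0.665). Sox9, the transcription factor that drives cartilage genes, was at 8.57 ± 0.03 in the Rhau KO arrays and 8.73 ± 0.06 in the wildtype arrays (SD, n = 3 each; difference -0.16, adjusted p = 0.250). Acan, Matn1, Matn3, Cnmd and Snorc, genes of cartilage matrix or chondrocytes, were below the filter, and none was listed at 0. The summed linear signal of the list was 3151 to 3373 in the Rhau KO arrays and 3106 to 3362 in the wildtype arrays. These ranges overlap. Hapln1, the brightest of the list (10.48 in the Rhau KO arrays and 10.42 in the wildtype arrays), weighed most in that sum. The part of cartilage-like cells in the Col2a1 difference was not tested.

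Collagen IV genes did not move as a class. Col4a5, a chain found in a subset of basement membranes, was at 12.43, 12.49 and 12.51 in the arrays labelled Rhau KO and at 11.77, 11.82 and 11.84 in those labelled wildtype. The groups are far apart relative to their spread. The level was 1.59-fold higher (0.67, SE 0.047, adjusted p = 8.6e-06), and a second Col4a5 probe set differed by 0.94. Col4a6, its chain partner, was at 8.91, 8.89 and 9.06 in the Rhau KO arrays and at 8.90, 8.63 and 8.86 in the wildtype arrays on its brightest probe set. These values overlap, with a difference of 0.16 and adjusted p = 0.321. The other Col4a6 probe set was at 8.74, 8.78 and 8.98 in the Rhau KO arrays and at 8.37, 8.44 and 8.41 in the wildtype arrays. There the groups are apart, and the difference of 0.43 passed when every probe set was tested (adjusted p = 0.0186).

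The chains of the common basement membrane network were slightly lower or level. Col4a1 had 12.75, 12.69 and 12.79 in the Rhau KO arrays and 12.92, 12.86 and 12.69 in the wildtype arrays, which overlap (difference -0.08, adjusted p = 0.406). Col4a2 had 11.77, 11.72 and 11.69 in the Rhau KO arrays and 11.92, 11.84 and 11.84 in the wildtype arrays. Its groups do not overlap, yet the difference of -0.14 missed the threshold (adjusted p = 0.0815); with median centring it was -0.21 and passed (adjusted p = 0.0365). Within arrays, Col4a5 minus Col4a1 was -0.31 to -0.20 under the Rhau KO label and -1.15 to -0.85 under the wildtype label. The shift was 0.75. Such a shift shows unequal change of the chains and not which of them changed. This contrast and that of Col4a5 with Col4a6 were chosen after their values were seen.

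Col4a5 and Col4a6 lie on the X chromosome on opposite strands, with 1343 bases between the starts that RefSeq's promoter windows use, whereas those of Col4a1 and Col4a2 lie 21 bases apart on opposite strands of chromosome 8. Sex-linked transcripts differed between the labels, and of 415 X-linked genes tested 52 passed as higher (12.53%, against 8.20% of all genes) and 31 as lower (7.47%, against 10.8%) under the Rhau KO label. The upstream stretches of the X-linked pair are shown because this interval separates the chain that passed from the chain whose brightest probe set did not. They are RefSeq promoter sequence of build GRCm38.p6, read 5′ to 3′ on each gene's own strand and ending before the gene's outermost annotated start, which left out the last 49 bases of the 250-base window for Col4a5 and 19 for Col4a6. The Col4a5 stretch is chrX:141475169-141475369 (plus strand) and the Col4a6 stretch chrX:141474096-141474326 (minus strand).
Col4a5: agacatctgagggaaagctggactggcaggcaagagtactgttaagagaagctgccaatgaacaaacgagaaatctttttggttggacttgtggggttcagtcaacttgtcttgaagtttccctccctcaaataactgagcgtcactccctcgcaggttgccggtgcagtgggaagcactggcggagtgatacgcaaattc
Col4a6: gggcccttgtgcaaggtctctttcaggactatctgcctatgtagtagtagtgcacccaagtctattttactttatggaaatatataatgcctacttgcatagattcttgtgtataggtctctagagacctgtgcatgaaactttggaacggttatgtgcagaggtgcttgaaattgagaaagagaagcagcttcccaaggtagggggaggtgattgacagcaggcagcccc
Neither stretch holds GGGCGG, which both full windows hold, so the match there reaches into the bases not shown. Neither holds 4 runs of GGG with 1 to 7 bases between runs, on either strand. The Col4a5 stretch has 1 CCAAT, and its share of G and C is 49.8%, against 45.5% in the Col4a6 stretch.

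The 3 collagen VI genes of the common filament were all lower in the arrays labelled Rhau KO, against 10.8% of all genes. Col6a1, a short chain, was at 9.60, 9.65 and 9.52 in the Rhau KO arrays and at 9.98, 10 and 9.90 in the wildtype arrays. Col6a2, the other short chain, was at 10.21, 10.51 and 10.46 in the Rhau KO arrays and at 10.63, 10.72 and 10.77 in the wildtype arrays. Col6a3, the long chain that completes the monomer, was at 10.25, 10.33 and 10.17 in the Rhau KO arrays and at 10.49, 10.55 and 10.60 in the wildtype arrays. No array labelled Rhau KO reached the lowest wildtype array in any of the 3 genes. The differences were -0.37 (SE 0.070, adjusted p = 0.00465), -0.31 (SE 0.081, adjusted p = 0.0220) and -0.29 (SE 0.065, adjusted p = 0.0102), which are 1.29-fold, 1.24-fold and 1.23-fold lower levels. Col6a1 minus Col6a2 shifted by -0.05 and Col6a1 minus Col6a3 by -0.07 within arrays, with overlapping groups, so any unequal change lay within the spread; the contrast with Col6a3 was chosen after its values were seen. The calls for Col6a1 and Col6a3 held when any 1 array was left out. That for Col6a2 was lost without Rhau KO replicate 1 (-0.22), wildtype replicate 2 (-0.31) or wildtype replicate 3 (-0.28), and its other probe set differed by -0.18 without passing (adjusted p = 0.336). Col6a4 and Col6a5, which encode alternative long chains, lay below the filter.

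The stretches upstream of the 3 collagen VI genes are shown because these genes were lower together. They come from the same RefSeq table and build: chr10:76726045-76726294 for Col6a1, chr10:76623631-76623880 for Col6a2 and chr1:90844002-90844221 for Col6a3, all on the minus strand. The first pair are full windows of 250 bases, whereas 30 bases were left out for Col6a3. Capitals mark every match of 4 runs of GGG with 1 to 7 bases between runs, on either strand, the letter pattern usually searched for G-quadruplexes.
Col6a1: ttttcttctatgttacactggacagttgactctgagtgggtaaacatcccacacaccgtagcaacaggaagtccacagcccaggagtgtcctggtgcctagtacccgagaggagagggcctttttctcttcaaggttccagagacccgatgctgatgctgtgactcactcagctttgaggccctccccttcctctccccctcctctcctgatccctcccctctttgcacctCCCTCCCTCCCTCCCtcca
Col6a2: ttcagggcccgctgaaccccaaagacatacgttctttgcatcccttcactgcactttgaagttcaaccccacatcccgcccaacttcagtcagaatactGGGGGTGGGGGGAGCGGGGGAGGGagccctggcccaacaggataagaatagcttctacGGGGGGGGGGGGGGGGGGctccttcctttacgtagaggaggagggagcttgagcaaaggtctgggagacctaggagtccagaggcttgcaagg
Col6a3: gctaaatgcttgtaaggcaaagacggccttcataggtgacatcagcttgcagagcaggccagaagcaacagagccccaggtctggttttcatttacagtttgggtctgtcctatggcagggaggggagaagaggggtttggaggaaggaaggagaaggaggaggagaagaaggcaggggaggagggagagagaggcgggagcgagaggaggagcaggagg
The Col6a1 stretch holds 1 match, which lies on the opposite strand as runs of C, the Col6a2 stretch holds 2 and the Col6a3 stretch none, nor does the full Col6a3 window. Col6a1 and Col6a2 run in the same direction on chromosome 10, with starts 102414 bases apart, and Col6a3 is on chromosome 1. A match is a row of letters and not a measured structure.

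Over the promoter table, 33 members had a window of 250 bases before the start. The G-run pattern was found in 13 of them (39.4%) and in 16.6% of all 32851 windows. GGGCGG, the core of the GC box, was found in 20 members (60.6%) and in 32.7% of all windows, and CCAAT in 13 (39.4%) and 33.8%. TATAAA was found in 5 members (15.2%, against 12.4% of all windows) and ACAAAG in 3 (9.09%, against 16.5%). Both strands were searched, and a member with several windows counted once if any held the pattern, which gives it more chances than a single window. Among the 6 called members with a window (Col4a5, Col6a1, Col6a2, Col6a3, Col13a1 and Col23a1), 4 held the G-run pattern (Col6a1, Col6a2, Col13a1 and Col23a1), including lower and higher genes. These shares are descriptions without a test.

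Among the fibril-associated collagens 1 of 7 tested members passed, against 19.0% of all genes in either direction. Col12a1, whose product coats fibrils in tissues under load, was at 8.91, 9.36 and 9.13 in the Rhau KO arrays and at 8.35, 8.60 and 8.33 in the wildtype arrays. All Rhau KO arrays lay above all wildtype arrays, at a 1.63-fold higher level (0.71, SE 0.128, adjusted p = 0.00363). A second, dimmer Col12a1 probe set did not separate the labels, with a difference of 0.05. Further Col12a1 probe sets lay below the filter and differed by -0.14 and 1.34. The mean of all Col12a1 probe sets, these included, differed by 0.49 without passing (adjusted p = 0.479). Col14a1, another collagen of fibril surfaces, was at 8.44, 8.71 and 8.66 in the Rhau KO arrays and 8.61, 8.68 and 8.53 in the wildtype arrays, a difference of -0.0042. Col16a1 differed by -0.04, and Col22a1, a collagen of muscle-tendon junctions, by -0.05.

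Of 3 transmembrane collagens tested 2 were higher, against 8.20% of all genes, a count too small to speak for the class. Col13a1, a cell-surface collagen known from neuromuscular junctions, was at 9.76, 9.70 and 9.48 in the Rhau KO arrays and at 9.07, 9.06 and 8.91 in the wildtype arrays. The groups do not overlap, and the level was 1.55-fold higher (0.63, SE 0.094, adjusted p = 0.00120). Col23a1 was at 9.09, 8.72 and 9.07 in the Rhau KO arrays and at 8.40, 8.74 and 8.31 in the wildtype arrays. Here Rhau KO replicate 2 lay just under wildtype replicate 2, and the difference of 0.48 (SE 0.140) passed narrowly, with adjusted p = 0.0368. That call was lost without Rhau KO replicate 1 (0.41), Rhau KO replicate 3 (0.42), wildtype replicate 1 (0.43) or wildtype replicate 3 (0.39), and with the replicate number as a block (0.48, adjusted p = 0.0653). The other Col23a1 probe sets differed by 0.38 and 0.60, and both passed when each probe set was tested. Col25a1, which is found in neurons and muscle, differed by 0.24 with an interval of -0.37 to 0.86.

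Col26a1, a secreted collagen outside the large classes, was at 8.73, 8.82 and 8.79 in the Rhau KO arrays and at 7.88, 8.18 and 8.40 in the wildtype arrays. The Rhau KO arrays were tightly grouped above spread wildtype arrays, at a 1.54-fold higher level (0.63, SE 0.133, adjusted p = 0.00862). Of its 2 probe sets the other lay below the filter, and their mean differed by 0.28 without passing (adjusted p = 0.665). Col18a1, a basement membrane collagen whose end fragment is endostatin, was at 11.97, 11.95 and 11.99 in the Rhau KO arrays and at 11.90, 11.86 and 11.82 in the wildtype arrays. These do not overlap, though the difference of 0.11 did not pass (adjusted p = 0.115). Among the short-chain and anchoring collagens none of 3 passed in limma, while 1 had an unadjusted p under 0.05: Col8a1, a collagen of vessel walls, at 0.44 (adjusted p = 0.114). Col8a2 and Col7a1, the collagen of skin anchoring fibrils, differed by 0.03 and -0.04.

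**Figure D2:**
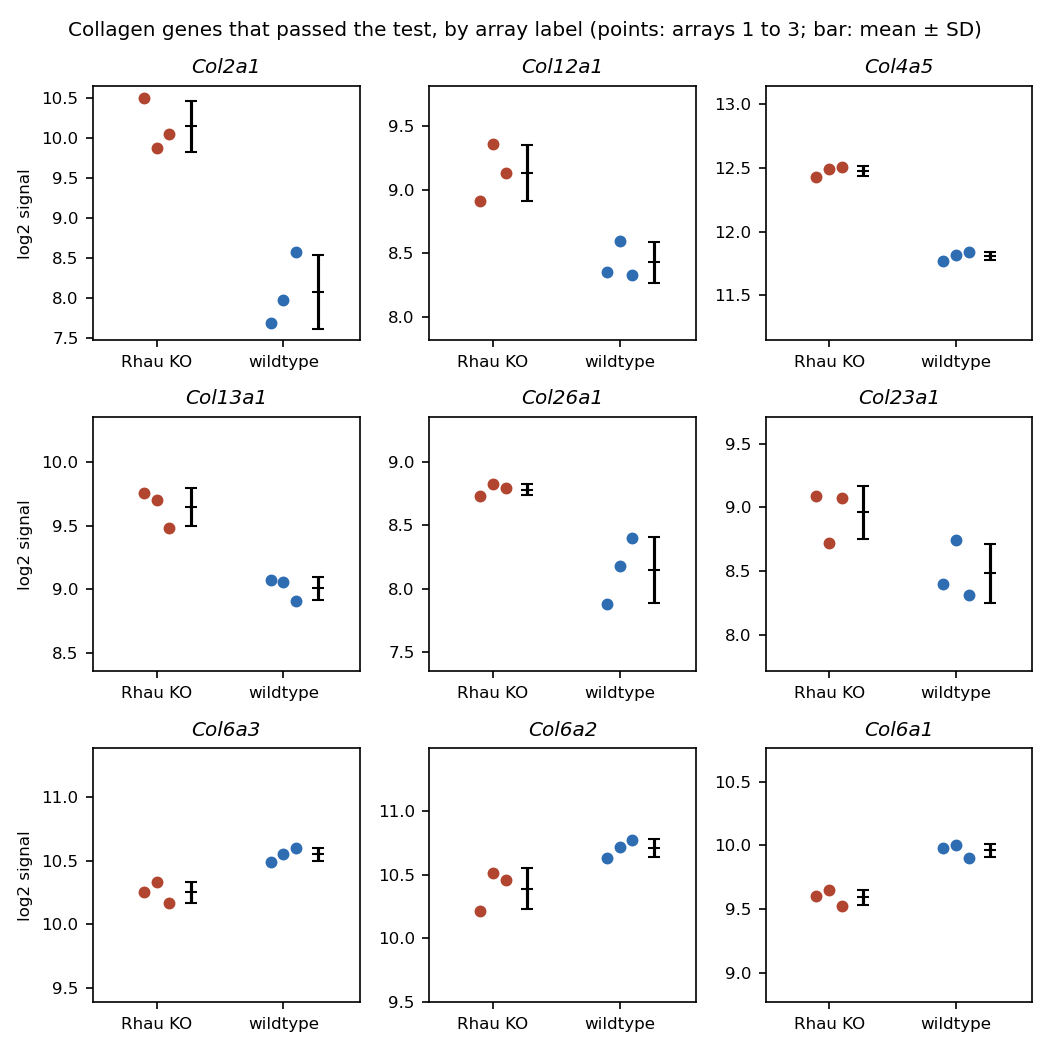
Log2 signal (vertical axis) of the 9 collagen genes that passed the test, with 1 point per array and mean ± SD beside the points, arrays labelled Rhau KO left and wildtype right. Only Col23a1 has points that overlap between the labels, and each panel spans at least 2 log2 units.

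The 12 members below the filter had means between 2.81 and 5.51. With the filter removed, none of them passed in limma (adjusted p from 0.0724 to 0.941), and 2 had an unadjusted p under 0.05. Col11a2 was at 3.46, 5.80 and 3.43 in the Rhau KO arrays and at 6.59, 6.41 and 5.78 in the wildtype arrays. Its difference of -2.03 had the lowest adjusted p of the 12, and Rhau KO replicate 2 touched the wildtype range. Col17a1, a transmembrane collagen of epithelia, was at 5.58, 5.18 and 5.0 in the Rhau KO arrays and at 4.92, 3.15 and 2.49 in the wildtype arrays, apart but dim. The remaining 10 (Col4a3, Col4a4, Col5a3, Col6a4, Col6a5, Col10a1, Col15a1, Col19a1, Col20a1 and Col24a1) overlapped between the labels.

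Members with more than 1 probe set gave a check on the choice of the brightest. The 42 members had 82 probe sets in all, and 21 other probe sets of tested members were above the filter. Of 5 such probe sets of called members all pointed the same way as the brightest. The 3 that passed belong to Col4a5 and Col23a1, whereas those of Col6a2 (-0.18) and Col12a1 (0.05, SE 0.218) did not pass. Of 16 such probe sets of members without a call 2 passed, those of Col4a6 and Col5a2. Over all probe sets above the filter, 14.6% passed in either direction. The second Col5a2 probe set was at 11.55, 11.71 and 11.60 in the Rhau KO arrays and at 11.26, 11.36 and 11.36 in the wildtype arrays. It separated the labels by 0.29, where the brightest differed by 0.02. The probe sets of Col27a1 pointed opposite ways, at -0.14 and 0.29, and neither passed. So did those of Col5a1 (0.19, -0.10 and 0.16), Col9a1 (-0.05 and 0.08), Col9a3 (-0.22 and 0.04) and Col1a2 (-0.0086, 0.0061 and 0.27), without passing.

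**Figure D3:**
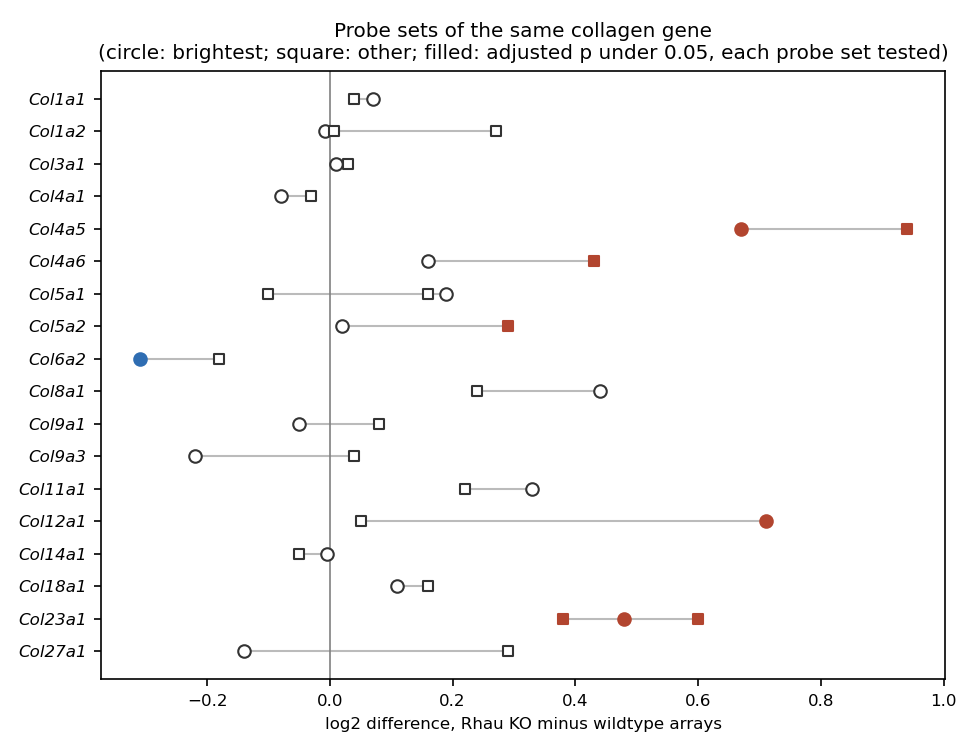
Log2 difference, arrays labelled Rhau KO minus wildtype (horizontal axis), for each probe set above the filter of the 18 collagen genes with more than 1; circles are the brightest probe set, squares the others, filled where adjusted p was under 0.05 with each probe set tested. Both Col4a5 and all 3 Col23a1 probe sets are filled, whereas Col12a1, Col4a6, Col5a2 and Col6a2 are filled for 1 probe set each.

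Within-array differences between chains of a collagen, set for 5 pairs, described how far partners kept together. Col1a1 minus Col1a2 averaged -2.67 ± 0.28 in the Rhau KO arrays and -2.75 ± 0.09 in the wildtype arrays (SD, n = 3 each). Col4a1 minus Col4a2 averaged 1.02 ± 0.07 in the Rhau KO arrays and 0.96 ± 0.09 in the wildtype arrays (SD, n = 3 each). Both shifts, 0.08 and 0.06, lay within overlapping groups. Col5a1 minus Col5a2 shifted by 0.18 and Col9a1 minus Col9a2 by -0.72, with groups apart, and Col9a2 is dim. The shift of Col5a1 against Col5a2 is that of their brightest probe sets. The other Col5a1 probe sets differed by -0.10 and 0.16 between the labels, and the other Col5a2 probe set by 0.29. The size of such a difference within an array has no meaning of its own, because probe sets differ in brightness.

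The share of genes that make, process or bind collagen and passed was near that of all genes. Of 70 pathway genes, 56 were tested and 10 passed (17.9%, against 19.0% of all genes): 2 were higher (3.57%), 8 lower (14.3%) and 46 did not pass, against 8.20% higher and 10.8% lower over all genes. In the folding and modification list 3 of 22 fell and none rose: Ppib, a prolyl isomerase of the endoplasmic reticulum (-0.19), P4hb, a subunit of the enzyme that hydroxylates prolines (-0.19), and Sec24d, a coat protein of procollagen transport vesicles (-0.20). In the processing and crosslinking list 1 of 6 fell, Pcolce, which enhances removal of the procollagen end piece, at -0.34 (12.15 ± 0.08 in the Rhau KO arrays and 12.48 ± 0.05 in the wildtype arrays). In the receptor list 1 of 5 fell, Itga1, a chain of a collagen-binding integrin, at -0.29, and in the degradation list 1 of 7 fell, Timp2, an inhibitor of matrix metalloproteinases, at -0.23.

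Of 16 collagen-binding matrix proteins 2 were higher and 2 lower, a number near what 8.20% and 10.8% of all genes would give. Bgn, the small proteoglycan biglycan, was at 11.78 ± 0.04 in the Rhau KO arrays and 12.19 ± 0.04 in the wildtype arrays, a difference of -0.42 with adjusted p = 0.000252, and it is X-linked. Dcn, its relative decorin, was higher by 0.23. The nidogens, which join collagen IV to laminin, differed by 0.20 for Nid1 and -0.33 for Nid2. Of these 10 pathway genes, Ppib, Pcolce, Bgn and Timp2 were called in all 6 fits that leave out 1 array. Calls were kept in 4 such fits for Nid2 (-0.38 to -0.24), in 3 for P4hb (-0.21 to -0.17), in 2 each for Sec24d (-0.22 to -0.18), Itga1 (-0.32 to -0.25) and Dcn (0.17 to 0.28), and in 1 for Nid1 (0.14 to 0.24). When Y-linked signal entered as a covariate, no call among the 10 was kept (adjusted p from 0.142 to 0.743), with SEs of 0.096 to 0.178, against 0.041 to 0.079 without it. The differences in that fit were as large or larger for Ppib (-0.24), Sec24d (-0.25), Pcolce (-0.39), Itga1 (-0.38), Timp2 (-0.31) and Nid1 (0.24), and smaller for Bgn (-0.39), P4hb (-0.14), Nid2 (-0.18) and Dcn (0.12).

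Marker lists of other cell types are read against the 8.20% of all genes that were higher and the 10.8% that were lower. Of 11 endothelial and endocardial markers 5 were higher and none lower, with a median of 0.12 and a summed linear signal of 15972 to 17148 in the Rhau KO arrays against 14090 to 15120 in the wildtype arrays. Of 12 cushion mesenchyme and fibroblast markers 1 was higher, the cushion proteoglycan Vcan (0.25), and 3 were lower (Prrx2, Tbx20 and Pdgfrb, the last in 3 of 6 fits that leave out 1 array, at -0.30 to -0.19). The summed signal of that list was 29289 to 30208 in the Rhau KO arrays and 30919 to 33656 in the wildtype arrays. Bright genes weigh most in such a sum: Tbx20 averaged 13.14 and 13.45, and Vcan 13.38 and 13.13, in the Rhau KO and wildtype arrays. Pdgfra was at 12.30 in wildtype replicate 1, against 11.37 and 11.34 in the other wildtype arrays. Of 7 epicardial markers none passed in limma. Of 7 liver, lung and gut epithelium markers 3 were tested and none passed. Epcam differed by -0.74 with groups apart (limma adjusted p = 0.0626), Ttr by -0.41 and Foxa2 by -0.21. Afp, Alb, Cdh1 and Nkx2-1 lay below the filter. Of 9 tested erythroid markers 6 were lower with a median of -0.99. Of 3 tested Schwann and neural crest markers Ednrb (0.78) and Elavl4 (0.63) were higher. The call of Elavl4 was kept in 1 of 6 fits that leave out 1 array (0.51 to 0.76). Sox10, the other one tested, differed by 0.04 without passing in limma (adjusted p = 0.934), and Foxd3 lay below the filter. Of 10 cardiomyocyte markers 4 were lower (Myh6, Myl7, Ryr2 and Tnni3), and of 4 tested smooth muscle markers 1 was lower (Cnn1). Among 7 macrophage markers Lyz2 (2.98) and Mrc1 (0.43) were higher. Csf1r (0.04), Cx3cr1 (-0.10), Adgre1 (0.18), Cd68 (0.24) and Ptprc (0.34) of that list did not pass. Leaving out 1 array kept the call of Tie1 in 1 of 6 fits (0.29 to 0.40), of Myl7 in 2 (-0.25 to -0.15), of Mrc1 in 3 (0.39 to 0.51), of Sox18 in 4 (0.27 to 0.40) and of Ryr2 in 5 (-0.30 to -0.20). With Y-linked signal as covariate none of the 5 endothelial calls (Cdh5, Kdr, Tie1, Npr3 and Sox18; adjusted p from 0.0812 to 0.766), the 4 cardiomyocyte calls (0.268 to 0.615) or the 4 cushion calls (0.107 to 0.283) was kept, while 5 of 6 erythroid calls, Lyz2 and Ednrb were. The calls of Mrc1, Elavl4 and Cnn1 were lost with that covariate too (limma adjusted p = 0.685, 0.911 and 0.38). No marker in these lists was listed at 0. The part of cell composition in the collagen differences was not tested.

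The sex-linked transcripts moved with the labels, so a fit with Y-linked signal as a covariate was also made. Col4a5 stood at 0.57 (SE 0.102, adjusted p = 0.0284) and Col13a1 at 0.99 (SE 0.173, adjusted p = 0.0268), and both still passed. Col2a1 stood at 1.72 (SE 0.470, adjusted p = 0.126), Col12a1 at 0.66, Col23a1 at 0.76 and Col26a1 at 0.22, and none of these passed. Of the lower genes Col6a1 stood at -0.23, Col6a2 at -0.61 and Col6a3 at -0.31, with 0 of 3 passing in limma and 1 at an unadjusted p under 0.05. The SE of Col2a1 was 0.470 in that fit and 0.212 without the covariate, and over all genes 0.370% were higher and 1.06% lower in that fit.

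In the 3 arrays that carried both Xist and Y-linked signal, where wildtype replicate 3 stands alone and the spread comes from 2 Rhau KO arrays that it is assumed to share, Col2a1 differed by 1.61, Col4a5 by 0.63, Col12a1 by 0.81 and Col13a1 by 0.82, and these 4 passed. Over all genes 2.40% were higher and 3.61% lower in that fit. Col6a1, Col6a2 and Col6a3 differed by -0.27, -0.41 and -0.31 without passing in limma, and 2 collagen genes were lower at an unadjusted p under 0.05. Leaving that fit aside, Col4a5 and Col13a1 passed in all of 18, Col2a1 in 17, Col6a1 in 17, Col12a1 in 16, Col6a3 in 16, Col26a1 in 16, Col6a2 in 11 and Col23a1 in 7 of the alternatives with 1 value per gene.

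**Figure D4:**
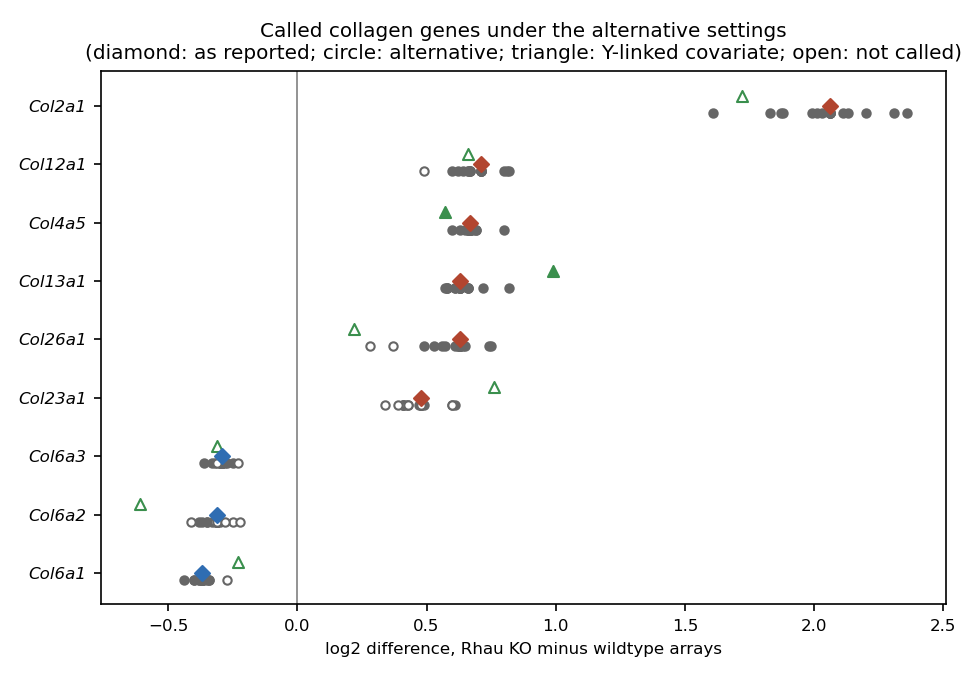
Log2 difference, arrays labelled Rhau KO minus wildtype (horizontal axis), of the 9 collagen genes that passed, as reported (diamonds), under the other settings (circles) and with Y-linked signal as covariate (triangles); open symbols did not pass. All symbols of a gene lie on the same side of 0, and Col4a5 and Col13a1 have no open symbol.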

How the data were processed

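Biotin-labelled RNA of each sample was read on an Affymetrix array, per the labels. The deposited log2 values were made by the authors with MAS5, per the submitters' processing notes, which name no version. Each array's 2% trimmed mean was 500.0 on the linear scale. All 6 columns matched a sample and 0 were left over. Of 45101 probe sets 64 controls were left out, and 34945 of the rest name 1 gene by the platform annotation, updated through Entrez identifiers to RefSeq (34741 matched). Arrays of one label differed in at least 44993 of 45037 values.

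Values were used as deposited, with no pseudocount. Each gene kept its probe set of highest mean, and the dimmest 40% of probe sets (log2 below 5.90) were left out. The 12416 genes were fitted with limma 3.58.1 in R 4.3.3 (lmFit, eBayes with trend, two-sided, Benjamini-Hochberg over all genes, threshold 0.05) without the replicate number, which the labels share between groups; every adjusted p is from this tool. The procedure was tested on simulated arrays. Nothing says that arrays come from separate litters, so p-values rest on the spread between arrays. That spread is not each gene's own alone, because eBayes with trend draws it toward that of genes of similar signal. Without the trend, limma adjusted p was 0.00914 for Col2a1 and 0.0034 for Col4a5. The calls of Col6a2 (0.0851) and Col23a1 (0.0953) were lost there. Members, lists and alternatives were chosen with earlier results of these data known. Every member is named; values in every array are given for called members, their chain partners, the 2 of highest signal and others whose groups do not overlap, and pathway lists by up to 4 called members of largest change. Alternatives covered pseudocounts of 1 and 64, normalization, filter, probe sets, trend, array weights, the replicate block, each array left out and sex-linked signal; leaving out both replicates 3 was added after seeing the data. Python 3.11.15, pandas 2.3.3 and matplotlib 3.10.9 handled tables and plots.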

Additional observations from a re-analysis of the deposited data

How the results depend on the processing

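As reported, 6 collagen genes were higher and 3 lower. The higher count was 2 with Y-linked signal as covariate. The lower count was 0 with that covariate (1 at an unadjusted p under 0.05 in limma) and 1 without both replicates 3. That last setting uses fewer arrays. No count is given for the 3 arrays holding Xist and Y-linked signal together, where wildtype replicate 3 stands alone. Leaving out 1 array gave 5 to 6 higher and 2 to 3 lower. With the replicate block 5 were higher and 3 lower, and Col23a1 was the call it changed. Same-numbered arrays correlated between -0.012 and 0.045 in their deviations, so the numbers were not taken to pair them. Called members kept their direction in all of 171 fits and their call in 140. Over all genes, 1018 were higher and 1336 lower as reported. The higher and lower counts were 614 and 878 without the eBayes trend and 588 and 806 with averaged probe sets. They were 532 and 1846 with median centring, 46 and 132 with the covariate and 534 and 881 without both replicates 3. With 1 array left out they were 590 to 802 and 916 to 1206. With each probe set tested on its own, 1550 and 1788 probe sets passed.

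Members without a call changed sign in 47 of 394 fits. Median log2 signal was 6.75 to 6.8 in the Rhau KO arrays and 6.68 to 6.74 in the wildtype arrays. Median centring therefore lowers every difference. Averaging takes in probe sets below the filter, such as a Col25a1 probe set that differed by -1.29. Causes in the other settings were not tested. With the covariate, values were -0.49 for Col1a1, -0.03 for Col3a1, 0.09 for Col4a1, -0.04 for Col4a6 and 0.08 for Col9a3. In the 3 arrays they were -0.11 for Col1a1, -0.0042 for Col3a1, 0.03 for Col4a1, -0.01 for Col8a2 and 0.04 for Col14a1. Averaged probe sets gave 0.09 for Col1a2, 0.01 for Col9a1, 0.02 for Col9a3, 0.09 for Col14a1, 0.02 for Col22a1, -0.52 for Col25a1 and 0.08 for Col27a1. Median centring gave -0.0021 for Col1a1, -0.06 for Col3a1, -0.05 for Col5a2 and -0.04 for Col8a2, and quantile normalization 0.06 for Col1a2 and -0.01 for Col8a2. Without both replicates 3, values were 0.0048 for Col1a2, -0.02 for Col3a1, -0.02 for Col5a2 and 0.23 for Col22a1. Leaving out 1 array spanned -0.09 to 0.25 for Col1a1, -0.03 to 0.02 for Col1a2, -0.01 to 0.03 for Col3a1, -0.0049 to 0.03 for Col5a2, -0.15 to 0.16 for Col7a1, -0.06 to 0.20 for Col8a2, -0.06 to 0.08 for Col14a1, -0.10 to 0.08 for Col16a1, -0.18 to 0.11 for Col22a1 and -0.02 to 0.49 for Col25a1. Signals below the filter and near the top of the scale limit what these arrays show.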
